A study of Homo sapiens with 8 samples.

Results

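The comparison described here asks whether resistance to a PARP inhibitor changed the same genes in human ovarian cancer cells with and without BRCA1. For every gene, the resistance effect in BRCA1-deficient cells (resistant minus parental, log2) was subtracted from the resistance effect in BRCA1-proficient cells, so that a positive difference means a more positive effect in the proficient background. Of 32803 genes in the deposited count table, 16221 had enough reads to be tested. At an adjusted p under 0.05 and a log2 difference of at least 1, the effects differed for 3681 genes, 22.7% of those tested. The genes of main interest were those that changed by a log2 value of at least 1 in both backgrounds but in opposite directions. They numbered 258, or 1.59% of the genes tested: 153 (0.943%) rose in proficient and fell in deficient resistant cells, and 105 (0.647%) fell in proficient and rose in deficient resistant cells.

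The 4 groups held 2 libraries each, and all cells were cultured in medium without drug. Resistant proficient cells were Olres-UWB1.289+BRCA1 at passage 45, and their parental line was UWB1.289+BRCA1 at passage 10. Resistant deficient cells were Olres-UWB1.289 at passage 56, and their parental line was UWB1.289 at passage 29. UWB1.289 is an ovarian carcinoma line without functional BRCA1, and UWB1.289+BRCA1 is the same line with BRCA1 put back. Each background had 1 resistant derivative, and the labels do not say whether it was a clone or a pool. Resistant cells were at the later passage in both backgrounds, so resistance, passage and what a single derivative acquired by chance cannot be told apart.

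PARP inhibitors trap poly(ADP-ribose) polymerases on DNA, and the breaks that result are repaired by homologous recombination, in which BRCA1 acts. A line that lacks BRCA1 and a line that has it therefore start from different repair capacities when they become resistant. Cells with unrepaired DNA can also leak it into the cytosol, where sensors such as cGAS switch on interferon and inflammatory genes, and these genes are among those followed in studies of PARP inhibition.

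The libraries held 24094821 to 34394107 counts. BRCA1 itself stood at 2176 and 2365 CPM in resistant proficient, 212 and 191 in parental proficient, 34.7 and 34.8 in resistant deficient and 36.1 and 35.1 in parental deficient libraries. CPM here are counts scaled to a common library total (TMM), without correction for gene length. BRCA1 rose in the proficient background (log2 fold change 3.49 ± 0.07, where ± is the SE, edgeR adjusted p = 1.06e-10), had an effect of -0.04 ± 0.07 in the deficient background (adjusted p = 0.714), and the effects differed by 3.53 ± 0.10. The labels fit these levels, with every proficient library above every deficient one. The BRCA1 level was thus not constant within the proficient background, and its rise there cannot be told apart from resistance or passage. PAX8, the lineage factor of Müllerian epithelium, and EPCAM, an epithelial adhesion gene, were expressed in all 8 libraries. Of 15 ovarian and Müllerian markers, 0 to 2 were at 0 in each library, and some others were low. WT1 was at 7.84 and 9.16 CPM in resistant proficient libraries and at no more than 0.276 in any other. EMX2 was at no more than 0.139 CPM in any library. FOLR1 was at 0.81 to 1.26 CPM in resistant deficient and 25.3 to 29.9 in parental proficient libraries. The B cell gene MS4A1 was at 0 counts in all 8, and DCN and LUM, fibroblast genes, were at no more than 0.0806 CPM. Other markers of these cell types were present. The collagen gene COL1A2 was at 28.1 to 28.9 CPM in resistant proficient, 46.2 to 46.6 in parental proficient, 0.723 to 1.3 in resistant deficient and 47.1 to 56.1 in parental deficient libraries. The endothelial cadherin gene CDH5 was at 33.8 to 39.6 CPM in the 4 deficient and 0.484 to 1.94 in the 4 proficient libraries. The monocyte gene CD14 was at 20.6 to 22.0 CPM in resistant proficient, 2.14 to 2.8 in parental proficient, 0.752 to 1.04 in resistant deficient and 0.287 to 0.658 in parental deficient libraries. The 10 fibroblast markers summed to 31.51 to 31.98 CPM in resistant proficient, 49.73 to 49.78 in parental proficient, 12.35 to 19.76 in resistant deficient and 62.89 to 72.42 in parental deficient libraries, with 3 to 5 at 0 in each. The 8 endothelial markers summed to 24.56 to 24.59 CPM in resistant proficient, 12.06 to 12.09 in parental proficient, 61.76 to 63.89 in resistant deficient and 52.54 to 53.74 in parental deficient libraries, with 1 to 3 at 0 in each. The summed level of 14 leukocyte markers was 28.97 to 30.01 CPM in resistant proficient, 18.6 to 18.7 in parental proficient, 22.5 in resistant deficient and 24.5 to 25.2 in parental deficient libraries, and each library had 5 to 10 of these markers at 0. The part of other cell types in the results was not tested. The libraries also differed in how levels followed the GC content of transcripts, with Spearman correlations across 12987 genes of -0.568 to -0.291 in the 4 proficient and 0.162 to 0.652 in the 4 deficient libraries. The GC trend and BRCA1 state went together, so the sizes of the opposite classes are given below with and without it. The same holds for some counts of the interferon, TGF-beta and immediate early lists. Counts of the other lists are given with the GC trend left in.

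Across all genes tested, the difference was positive for 1637 genes (10.1%) and negative for 2044 (12.6%). Most of these were not cases of opposite change. Of the 1637 with a positive difference, 577 (35.2%) passed the adjusted p in both backgrounds with opposite signs, 509 (31.1%) passed in proficient cells alone, 323 (19.7%) in deficient cells alone, and 194 (11.9%) moved the same way in both by unequal amounts. Of the 2044 with a negative difference, 498 (24.4%) had opposite signs, 498 (24.4%) passed in proficient cells alone, 779 (38.1%) in deficient cells alone, and 229 (11.2%) moved the same way in both. Genes that passed the log2 minimum in the same direction in both backgrounds were more numerous than the opposite ones, with 451 that rose in both (2.78%) and 339 that fell in both (2.09%). The fit chose these classes by the same values, so their sizes are a description. Nothing in the labels says whether the 2 libraries of a group came from separate cultures, so a p-value here reflects the spread of these libraries and no more, and that spread may be technical.

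**Figure D1:**
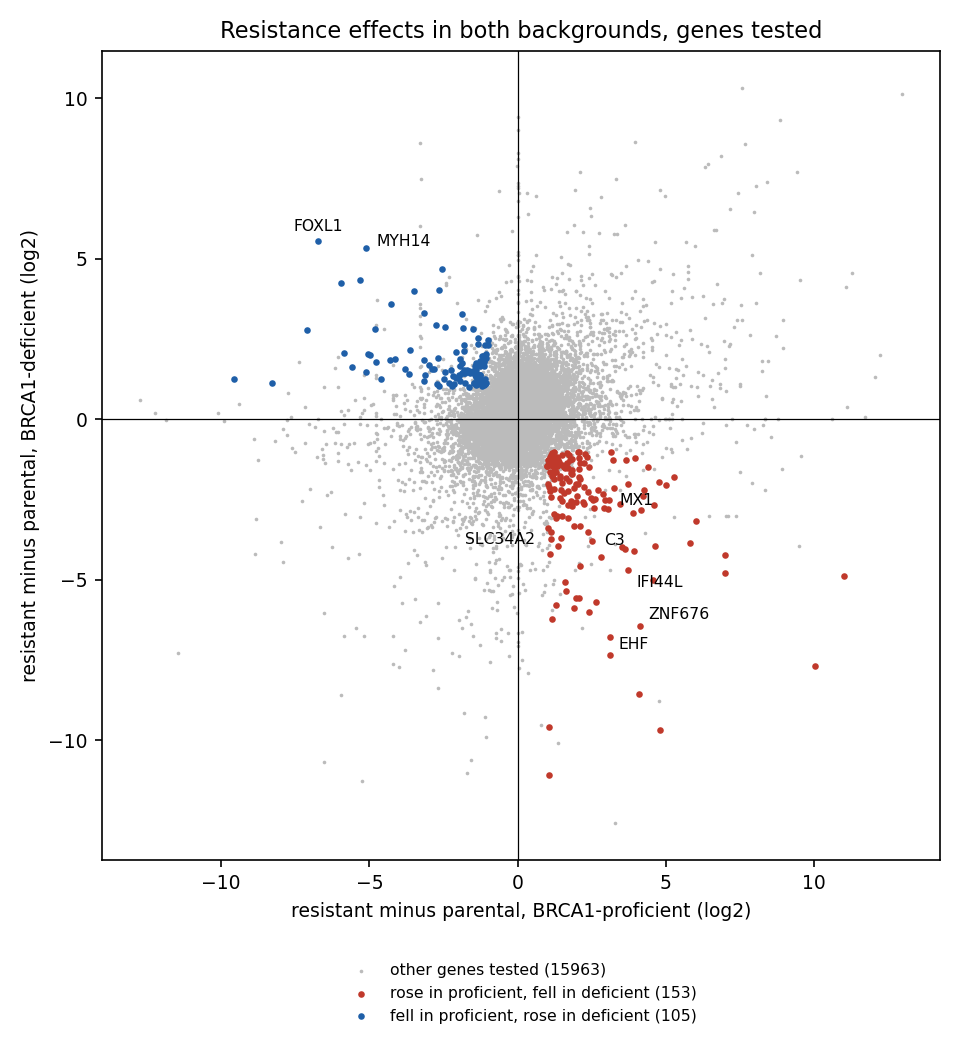
Each point is 1 of 16221 genes, with its log2 resistance effect in BRCA1-proficient cells on the x axis and in BRCA1-deficient cells on the y axis. The coloured points are the 153 genes that rose in proficient and fell in deficient cells (lower right) and the 105 that fell in proficient and rose in deficient cells (upper left), both past a log2 value of 1.

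The 2 opposite classes differed in base composition, with a median transcript GC content of 44.3% for the 153 genes and 58.9% for the 105, against 48.1% over all genes tested. Over 12987 genes the resistance effect correlated with GC content with a Spearman coefficient of 0.106 in proficient and 0.49 in deficient cells. With the GC trend of each library removed, 163 genes rose in proficient and fell in deficient cells, among them 139 of the 153 (90.8%). In the other direction there were 75, of which 58 were among the 105 (55.2%). The part of GC content in the second class was not tested further, and its members below are named with their value after removal where that value moved by more than 1.5 times.

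Of the 28 gene lists examined, the interferon-stimulated genes had the most members with opposite effects. Interferons signal through a complex of transcription factors that binds interferon response elements upstream of antiviral genes. Of 48 listed genes, all of them tested, 37 had a positive difference (background at this adjusted p alone, 21.4%) and 4 a negative one (25.3%), and the median difference was 1.80 against -0.08 over all genes. In proficient cells 26 rose (25.9%) and 6 fell (27.8%), with a median effect of 0.67. In deficient cells 4 rose (28.9%) and 38 fell (27.0%), with a median effect of -1.21. Rising in proficient and falling in deficient cells was seen for 23 of the 48 (5.02% of all genes), 13 of them past a log2 value of 1 in both, and the reverse for 1 (4.28%). These counts kept to 35 to 38 positive differences over all alternatives, and with the GC trend removed 26 members rose in proficient and fell in deficient cells.

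The upstream sequences of 4 members are shown because many genes of this group hold a match to the core of a response element there, and these 4 are among those that do. The core, GAAANNGAAA, was searched on both strands in the 250 bases before each gene start of RefSeq (GRCh38.p14). It was found for 25 of the 37 listed interferon genes that had a window (67.6%) and for 15 of 19 of those that rose in proficient and fell in deficient cells (78.9%). It was in 3.02% of all 35116 windows and upstream of 3.39% of the tested genes with a window. Among the 258 genes of opposite effect it was found for 10 of 112 in the first class (8.93%) and 0 of 72 in the second. The first class includes 13 members of the interferon list, among them the 4 shown here, so its share is not separate from that of the list. Capitals mark the motif, GAAANNGAAA on the printed strand or its reverse complement, and each sequence ends at the base before the gene start.
IFI44L, chr1:78620198-78620447, plus strand: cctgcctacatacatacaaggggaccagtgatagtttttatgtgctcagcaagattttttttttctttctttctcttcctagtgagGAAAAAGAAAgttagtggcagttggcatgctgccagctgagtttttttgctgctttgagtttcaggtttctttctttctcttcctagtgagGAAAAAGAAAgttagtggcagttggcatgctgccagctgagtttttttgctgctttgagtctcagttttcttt
IFI44, chr1:78649539-78649788, plus strand: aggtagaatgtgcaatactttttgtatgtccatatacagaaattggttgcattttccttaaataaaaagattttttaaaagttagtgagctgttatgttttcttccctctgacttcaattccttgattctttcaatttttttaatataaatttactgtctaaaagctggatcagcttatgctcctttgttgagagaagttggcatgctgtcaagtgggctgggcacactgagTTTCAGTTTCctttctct
IFI6, chr1:27672193-27672442, minus strand: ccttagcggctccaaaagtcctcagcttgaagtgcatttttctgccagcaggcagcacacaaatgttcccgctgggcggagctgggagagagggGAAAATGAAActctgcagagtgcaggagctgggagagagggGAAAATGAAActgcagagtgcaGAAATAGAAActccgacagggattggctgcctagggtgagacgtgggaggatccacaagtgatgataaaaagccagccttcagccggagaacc
IFIT1, chr10:89392373-89392622, plus strand: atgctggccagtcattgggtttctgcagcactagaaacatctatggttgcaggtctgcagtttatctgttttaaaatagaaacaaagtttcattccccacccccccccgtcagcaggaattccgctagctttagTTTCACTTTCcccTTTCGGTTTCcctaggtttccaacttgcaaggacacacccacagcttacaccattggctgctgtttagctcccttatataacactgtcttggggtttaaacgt
The motif starts 164 and 73 bases before the start of IFI44L, within a stretch that is repeated there. It starts 18 bases before the start of IFI44, 156, 115 and 93 bases before that of IFI6, and 116 and 103 bases before that of IFIT1. A match describes the letters of the window and does not show binding.

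IFI44L, an interferon-induced gene that dampens antiviral signalling, had 13.0 and 15.2 CPM in resistant proficient and 1.09 and 1.04 in parental proficient libraries, against 1.55 and 1.91 in resistant deficient and 45.1 and 45.6 in parental deficient libraries. Both resistant proficient libraries lay above both parental ones, both resistant deficient libraries lay below theirs, and the highest levels were those of parental deficient cells. The effect was 3.73 ± 0.18 in proficient (edgeR adjusted p = 3.65e-08) and -4.70 ± 0.16 in deficient cells (adjusted p = 8.53e-09), a difference of 8.43 ± 0.24 (adjusted p = 1.37e-09). Its neighbour IFI44, which is induced with it, was at 19.8 and 21.5 CPM in resistant proficient, 1.61 and 1.52 in parental proficient, 19.8 and 20.1 in resistant deficient and 80.6 and 81.6 in parental deficient libraries. After resistance the backgrounds met at nearly the same IFI44 level, although parental deficient cells had stood far above parental proficient cells, and the difference between the effects was 5.74 ± 0.16 (edgeR adjusted p = 1.21e-09).

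IFI6, a mitochondrial and endoplasmic reticulum protein with antiviral activity, stood at 32.4 and 30.5 CPM in resistant proficient, 3.83 and 3.80 in parental proficient, 7.56 and 7.52 in resistant deficient and 57.4 and 48.6 in parental deficient libraries. Its effects of 3.04 ± 0.13 and -2.81 ± 0.12 (proficient, then deficient) turned the order of the backgrounds round, with no overlap between libraries. MX1, a GTPase that blocks viral replication, had 16.3 and 15.2 CPM in resistant proficient, 1.65 and 2.04 in parental proficient, 9.51 and 9.81 in resistant deficient and 55.6 and 56.1 in parental deficient libraries. IFIT1, which binds viral RNA caps, had 17.7 and 16.8 CPM in resistant proficient and 2.78 and 2.45 in parental proficient libraries, and 4.14 and 5.26 in resistant deficient and 22.3 and 21.6 in parental deficient libraries. For MX1 and IFIT1 the resistant proficient libraries again lay above the resistant deficient ones and the parental proficient libraries below the parental deficient ones, with differences of 5.61 ± 0.19 and 4.94 ± 0.23 (edgeR adjusted p = 4.16e-09 and 5.89e-08).

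IFI44, IFIT1 and OAS2 were chosen after their values were seen. OAS2, a synthetase that makes the 2-5A signal for RNA decay, kept a different order. It had 5.97 and 6.70 CPM in resistant proficient and 1.01 and 1.69 in parental proficient libraries, and 18.4 and 21.1 in resistant deficient and 122 and 114 in parental deficient libraries. The effects of 2.20 ± 0.20 and -2.58 ± 0.13 brought the backgrounds closer, and deficient cells remained higher. TRIM22, an antiviral ubiquitin ligase, showed the reverse imbalance, with 7.98 and 7.66 CPM in resistant proficient and no more than 1.02 CPM in any other library, and its effects were 4.16 ± 0.42 and -2.82 ± 0.59 (edgeR adjusted p = 8.74e-06 and 0.00192). CXCL10, a chemokine gene, IFI27, OAS1, OASL, DDX60 and HERC6 were the other members past a log2 value of 1 in both, with effects from 1.44 (DDX60) to 2.88 (CXCL10) in proficient and from -1.08 (HERC6) to -2.57 (IFI27) in deficient cells.

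Genes that act in the signalling itself had smaller effects than these targets. STAT2, a transcription factor of the pathway, rose by 0.39 in proficient cells and changed by -0.71 in deficient cells. IFIH1, a sensor of double-stranded RNA, had effects of 0.67 and -1.11. SAMD9 and its neighbour SAMD9L, antiviral genes, had large effects in proficient cells (4.38 and 3.79) and smaller ones in deficient cells (-0.70 and -0.96). PARP9, an interferon-induced PARP family member, had 40.2 and 41.5 CPM in resistant proficient, 28.99 and 25.9 in parental proficient, 26.1 and 26.9 in resistant deficient and 63.0 and 65.4 in parental deficient libraries, a difference of 1.85 ± 0.13 (edgeR adjusted p = 1.05e-06). The 1 member that went the other way was IRF1, a transcription factor induced early by interferon gamma, with -2.35 in proficient and 0.32 in deficient cells, and with the GC trend removed no member of the list fell in proficient and rose in deficient cells.

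The order of the backgrounds within this list changed with resistance. The mean level was higher in proficient than in deficient cells for 29 of the 48 genes among resistant lines and for 8 of the 48 among parental lines, whereas over all 16221 genes the counts were 8015 among resistant and 8130 among parental lines. In bulk RNA, a change in the share of cells that express these genes and a change in the level per cell cannot be told apart.

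**Figure D2:**
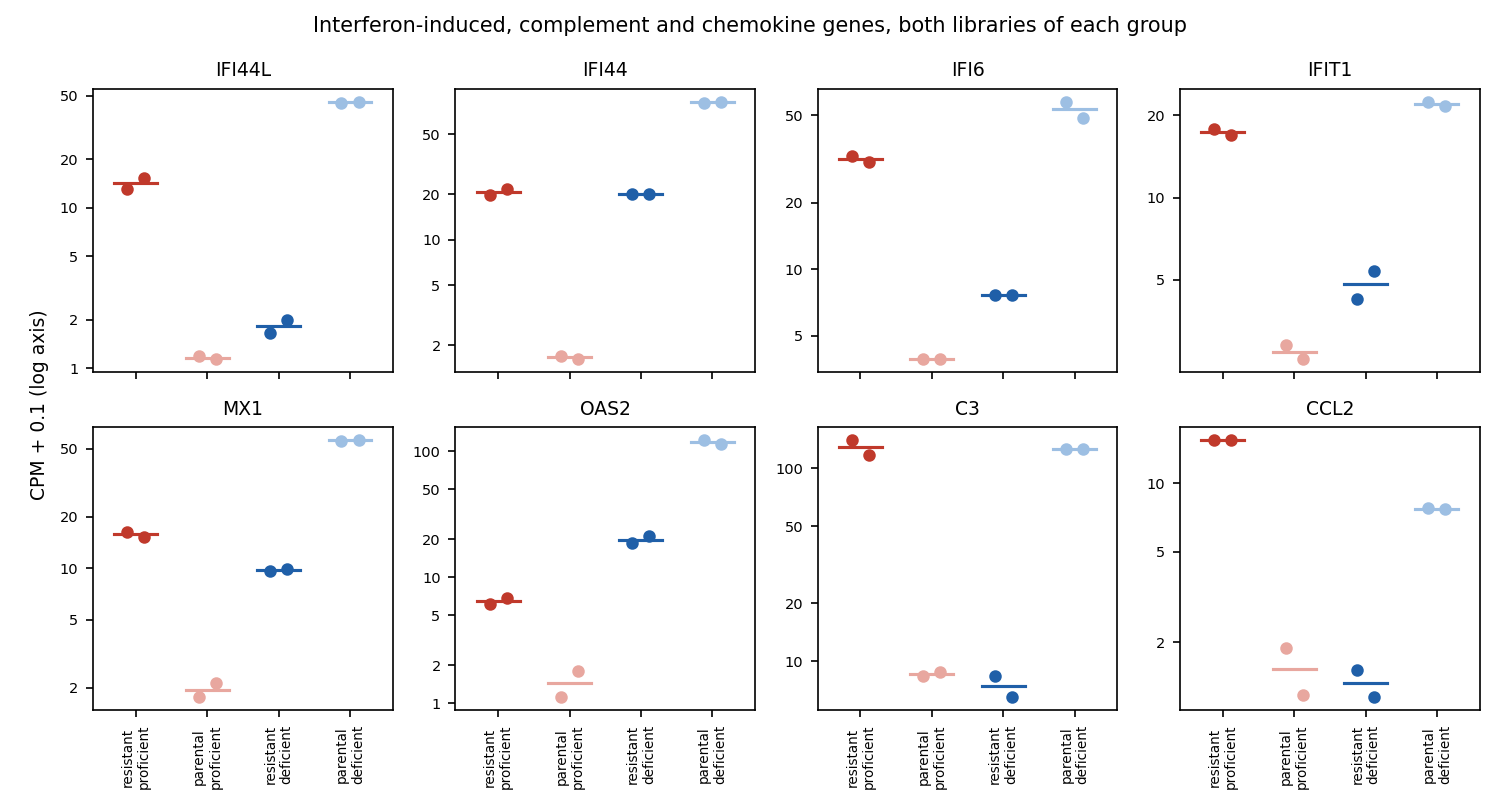
Levels of 6 interferon-stimulated genes, complement C3 and the chemokine CCL2 in CPM plus 0.1 on log axes, with 1 point per library and a bar at the group mean. In all 8 panels the resistant proficient libraries lie above the parental proficient ones and the resistant deficient libraries lie below the parental deficient ones.

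The complement gene C3 and the chemokine gene CCL2 also rose in proficient and fell in deficient cells. C3, the central complement protein, had 140.1 and 117 CPM in resistant proficient and 8.31 and 8.75 in parental proficient libraries, against 8.28 and 6.39 in resistant deficient and 125 and 125 in parental deficient libraries. The high and low levels changed places, with effects of 3.91 ± 0.13 in proficient (edgeR adjusted p = 3.23e-09) and -4.10 ± 0.13 in deficient cells (adjusted p = 4.87e-09). CCL2, which attracts monocytes, had 15.3 and 15.4 CPM in resistant proficient, 1.77 and 1.07 in parental proficient, 1.40 and 1.04 in resistant deficient and 7.63 and 7.60 in parental deficient libraries, with effects of 3.44 ± 0.24 and -2.65 ± 0.24.

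The NF-kB and inflammatory list as a whole did not share this pattern. Of 23 tested members, 9 had a positive and 7 a negative difference (21.4% and 25.3% of all genes), with a median of 0.11, and 13 fell in proficient and 18 in deficient cells (27.8% and 27.0% of all genes). The 5 with opposite effects all rose in proficient cells (5.02% of all genes). CXCL1, a neutrophil chemokine, had effects of 0.75 ± 0.11 and -1.04 ± 0.11, and TNFAIP3, a brake on NF-kB, of 0.57 ± 0.09 and -0.26 ± 0.08, of which the deficient effect missed the threshold with DESeq2 (adjusted p = 0.0578) and without either of 2 libraries. CXCL5, another neutrophil chemokine, had 11.0 and 11.7 CPM in resistant proficient, 8.10 and 6.98 in parental proficient, 0.684 and 0.810 in resistant deficient and 17.0 and 21.5 in parental deficient libraries. Its fall in deficient cells was -4.67 ± 0.21, while the rise of 0.59 ± 0.17 in proficient cells was small and missed the threshold without parental proficient replicate 2 (0.48, edgeR adjusted p = 0.101).

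Zinc finger genes on chromosome 19 and protocadherin genes on chromosome 5 were frequent among the genes with the largest opposite effects. The rule for these genes took the 12 per direction with the largest smaller effect of the 2, among protein-coding genes with at least 5 CPM in the highest group and no overlap of libraries. In the direction up in proficient and down in deficient cells, it took ZNF729, ZNF728, ZNF676, ZNF99 and ZNF723, which encode KRAB zinc finger proteins that repress transposable elements, and PCDHB8 and PCDHB16, which encode neuronal cell adhesion proteins. ZNF676, the most abundant of them, had 30.9 and 34.9 CPM in resistant proficient, 2.06 and 1.73 in parental proficient, 0.0360 and 0.116 in resistant deficient and 7.07 and 7.49 in parental deficient libraries. ZNF676 was thus high in resistant proficient and nearly absent in resistant deficient cells, with effects of 4.12 ± 0.19 and -6.43 ± 0.31 (edgeR adjusted p = 2.81e-08 and 9.06e-08). PCDHB8 had 7.60 and 7.08 CPM in resistant proficient and 0.363 and 0.484 in parental proficient libraries, and 0 counts in both resistant deficient libraries against 1.71 and 1.49 CPM in parental deficient ones. Its fall in deficient cells was at least 33.1-fold, computed against a floor of 3 counts over the group.

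The remaining members of these families rested on few reads in deficient cells. ZNF729 had 2 counts over the resistant and 65 over the parental deficient libraries, a ratio of 31.1 lower (exact 95% interval 8.26 to 262), and PCDHB16 had 2 and 77 counts, a ratio of 36.8 lower (9.84 to 309). The fitted deficient effects of both genes moved by more than 1.5 times, to -7.85 for ZNF729 without resistant deficient replicate 2 and -8.14 for PCDHB16 without resistant deficient replicate 1. ZNF99 was 15.6-fold lower (5.04 to 78.3) and ZNF723 10.03-fold lower (2.45 to 88.3). ZNF728 had 0 against 5 counts, at least 1.59-fold lower, and its deficient effect missed the threshold without any one of 3 deficient libraries (edgeR adjusted p from 0.0947 to 0.116). In proficient cells the rises of these genes rested on 336 to 1730 counts in the resistant libraries.

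Some neighbouring genes shared the pattern. In the order of tested genes on GRCh38.p14, 8 in a row on chromosome 19 rose in proficient and fell in deficient cells at the adjusted p alone (LINC00664, ZNF429, ZNF100, ZNF43, ZNF208, ZNF257, ZNF676 and ZNF729), followed on the same chromosome by a run of ZNF99, ZNF723 and ZNF728. Over all 526 tested genes with a ZNF symbol, 11 (2.09%) were in this class past a log2 value of 1 and 0 in the reverse class, and of 61 protocadherin genes 4 (6.56%) and 0, against 0.943% and 0.647% of all genes tested. At the adjusted p alone the ZNF genes numbered 49 (9.32%) in this class and 14 (2.66%) in the reverse one and the protocadherins 4 (6.56%) and 0, against 5.02% and 4.28% of all genes, so that the protocadherin share was near that of all genes. These families were grouped after their values were seen. Their members are close paralogs, and how reads matching several genes were treated is not given in the sources used here, so their single values are uncertain.

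Of the other genes that the rule took in this direction, C3 and IFI44L are given above. SPAG17, a gene of motile cilia, was 17.7-fold lower in resistant deficient cells (exact 95% interval 4.56 to 151, 2 against 37 counts), a fitted effect of -3.97 ± 0.82 that became -7.09 without resistant deficient replicate 1. OR4C6, an olfactory receptor gene, had 470 counts over the resistant proficient libraries and 0 over the parental ones, at least 159-fold higher. Its fall in deficient cells rested on 8 counts in parental libraries and 0 in resistant ones, at least 2.55-fold lower, and missed the threshold without any one of 3 deficient libraries (edgeR adjusted p from 0.0532 to 0.0967). SMR3B, a salivary proline-rich protein gene, rose in proficient cells to 36.9 and 31.0 CPM, against 1.25 and 1.45 CPM in parental libraries. In deficient cells it had 0 counts in resistant and 4 in parental libraries, at least 1.27-fold lower, and that fall missed the threshold without any one of the 4 deficient libraries (edgeR adjusted p from 0.0742 to 0.141), with DESeq2 (adjusted p = 0.0744) and with the GC trend removed (0.0519).

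Among abundant genes of this class, 4 were chosen after their values were seen. EHF, an epithelial ETS transcription factor, had 99.8 and 115 CPM in resistant proficient and 12.7 and 12.1 in parental proficient libraries, and 0.756 and 1.16 in resistant deficient and 157 and 161 in parental deficient libraries. EHF went nearly silent in resistant deficient cells, with effects of 3.12 ± 0.11 and -7.34 ± 0.15 (edgeR adjusted p = 4.06e-09 and 1.73e-10). SLC34A2, which encodes the phosphate transporter NaPi2b, an antibody target in ovarian cancer, had 1884 and 1781 CPM in resistant proficient, 677 and 645 in parental proficient, 18.9 and 16.2 in resistant deficient and 229 and 225 in parental deficient libraries. Proficient cells were higher for SLC34A2 before and after resistance, and the effects of 1.47 ± 0.07 and -3.70 ± 0.08 widened that distance.

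PCDH19, a protocadherin gene on the X chromosome, and PALMD, a gene of the paralemmin family, moved in the same way. PCDH19 had 156 and 162 CPM in resistant proficient, 54.0 and 50.2 in parental proficient, 3.85 and 2.78 in resistant deficient and 114 and 107 in parental deficient libraries, so that the parental order was reversed in resistant cells. PALMD had 256 and 279 CPM in resistant proficient, 62.0 and 62.3 in parental proficient, 1.69 and 1.59 in resistant deficient and 17.1 and 15.9 in parental deficient libraries, and proficient cells were higher throughout. COL4A5 and COL4A6, paired basement membrane collagen genes on the X chromosome, fell together in deficient cells with their neighbours PSMD10 and ATG4A, all 4 rising in proficient cells at the adjusted p. COL4A5 had 98.6 and 79.1 CPM in resistant proficient, 42.6 and 43.1 in parental proficient, 0.0720 and 0 in resistant deficient and 29.3 and 27.2 in parental deficient libraries. That is 2 counts against 1839 in deficient cells, a ratio of 879 lower (exact 95% interval 243 to 7260), beside a rise of 1.05 ± 0.13 in proficient cells.

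Genes that fell in proficient and rose in deficient resistant cells included many targets of TGF-beta. TGF-beta signals through SMAD proteins and drives matrix, contractile and growth-arrest genes. Of 27 tested targets, 2 had a positive and 19 a negative difference (21.4% and 25.3% of all genes), with a median of -1.37. In proficient cells 5 rose and 13 fell (25.9% and 27.8% of all genes), with a median of -0.55. In deficient cells 20 rose and 4 fell (28.9% and 27.0% of all genes), with a median of 1.12. The opposite pattern was met by 9 targets (4.28% of all genes), 4 of them past a log2 value of 1 (IGFBP3, TAGLN, JUNB and SNAI2), and the reverse by 1. With the GC trend removed, 19 targets still had a negative difference, with a median of -1.14.

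IGFBP3, a secreted binder of insulin-like growth factors, had 77.8 and 80.3 CPM in resistant proficient and 211 and 209 in parental proficient libraries, against 687 and 711 in resistant deficient and 238 and 243 in parental deficient libraries. The parental levels were close and the resistant levels lay far apart, with effects of -1.41 ± 0.06 and 1.54 ± 0.06 (edgeR adjusted p = 1.52e-08 and 1.41e-08). TAGLN, an actin-binding protein of contractile cells, had 2.88 and 2.50 CPM in resistant proficient, 7.26 and 9.44 in parental proficient, 255 and 242 in resistant deficient and 88.8 and 86.1 in parental deficient libraries. Deficient cells were already higher for TAGLN before resistance, and the difference between the effects was -3.14 ± 0.17 (edgeR adjusted p = 2e-07).

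JUNB and SNAI2 were less certain. JUNB, an AP-1 subunit, had 2.57 and 2.21 CPM in resistant proficient, 7.58 and 8.64 in parental proficient, 39.9 and 18.1 in resistant deficient and 11.98 and 9.35 in parental deficient libraries. The wide spread in resistant deficient cells carried its deficient effect of 1.44 ± 0.29, which was 0.74 without resistant deficient replicate 1 and 0.33 with the GC trend removed (edgeR adjusted p = 0.0535). SNAI2, a repressor of epithelial genes, rose in deficient cells to 8.68 and 10.6 CPM, against 1.81 and 1.98 CPM in parental libraries. In proficient cells it had 12 counts in resistant and 31 in parental libraries, and that effect of -1.34 ± 0.50 missed the threshold with DESeq2 (adjusted p = 0.0567) and, at -0.69, without resistant proficient replicate 2 (edgeR adjusted p = 0.25).

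Immediate early and AP-1 genes, which respond within minutes to growth signals and stress, had negative differences or none that passed. Of 26 tested, 0 had a positive and 19 a negative difference (21.4% and 25.3% of all genes), with a median of -1.24. In proficient cells 0 rose and 19 fell (25.9% and 27.8% of all genes). In deficient cells 12 rose and 6 fell (28.9% and 27.0% of all genes). The deficient median of 0.12 became -0.03 with the GC trend removed (10 rose and 12 fell). Opposite effects were seen for 7 members, all of which fell in proficient and rose in deficient cells (4.28% of all genes).

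EGR1, a zinc finger transcription factor induced by growth factors, had 17.7 and 15.9 CPM in resistant proficient and 42.3 and 43.3 in parental proficient libraries, and 7.42 and 5.38 in resistant deficient and 2.99 and 2.98 in parental deficient libraries. The levels moved towards each other, with effects of -1.35 ± 0.15 and 1.09 ± 0.17 (edgeR adjusted p = 1.57e-05 and 0.000327), and proficient cells stayed higher. DUSP1, a phosphatase that switches off MAP kinases, had 39.2 and 37.2 CPM in resistant proficient, 55.9 and 58.6 in parental proficient, 39.3 and 35.5 in resistant deficient and 13.9 and 13.9 in parental deficient libraries. The resistant libraries of the backgrounds overlapped for DUSP1, while the parental ones did not. MYC, the growth regulator, had effects of -1.37 ± 0.10 in proficient and 0.78 ± 0.09 in deficient cells (edgeR adjusted p = 6.06e-07 and 4.33e-05), with 41.5 and 40.4 CPM in resistant proficient, 109.7 and 102 in parental proficient, 285 and 230.4 in resistant deficient and 152 and 149 in parental deficient libraries.

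YAP and TEAD targets, which report on Hippo signalling and cell shape, were mixed. Of 25 tested, 6 had a positive difference, a share near the 21.4% of all genes, and 14 a negative one (25.3% of all genes), with a median of -0.56. There were 5 that fell in proficient and rose in deficient cells (4.28% of all genes). AXL, a receptor kinase linked to drug tolerance, had 7.32 and 8.41 CPM in resistant proficient, 109 and 109.8 in parental proficient, 382 and 340.0 in resistant deficient and 298 and 280.4 in parental deficient libraries. Nearly all of its difference of -4.12 ± 0.12 came from the fall of -3.80 ± 0.10 in proficient cells, since the rise of 0.32 ± 0.07 in deficient cells was 0.16 with the GC trend removed and missed the threshold without parental deficient replicate 2 (0.25, edgeR adjusted p = 0.0746). DLC1, a tumour suppressor gene, had effects of -0.79 ± 0.09 and 0.48 ± 0.08. NUAK2, a kinase of the same list, went the other way with 0.94 ± 0.15 and -0.98 ± 0.16.

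**Figure D3:**
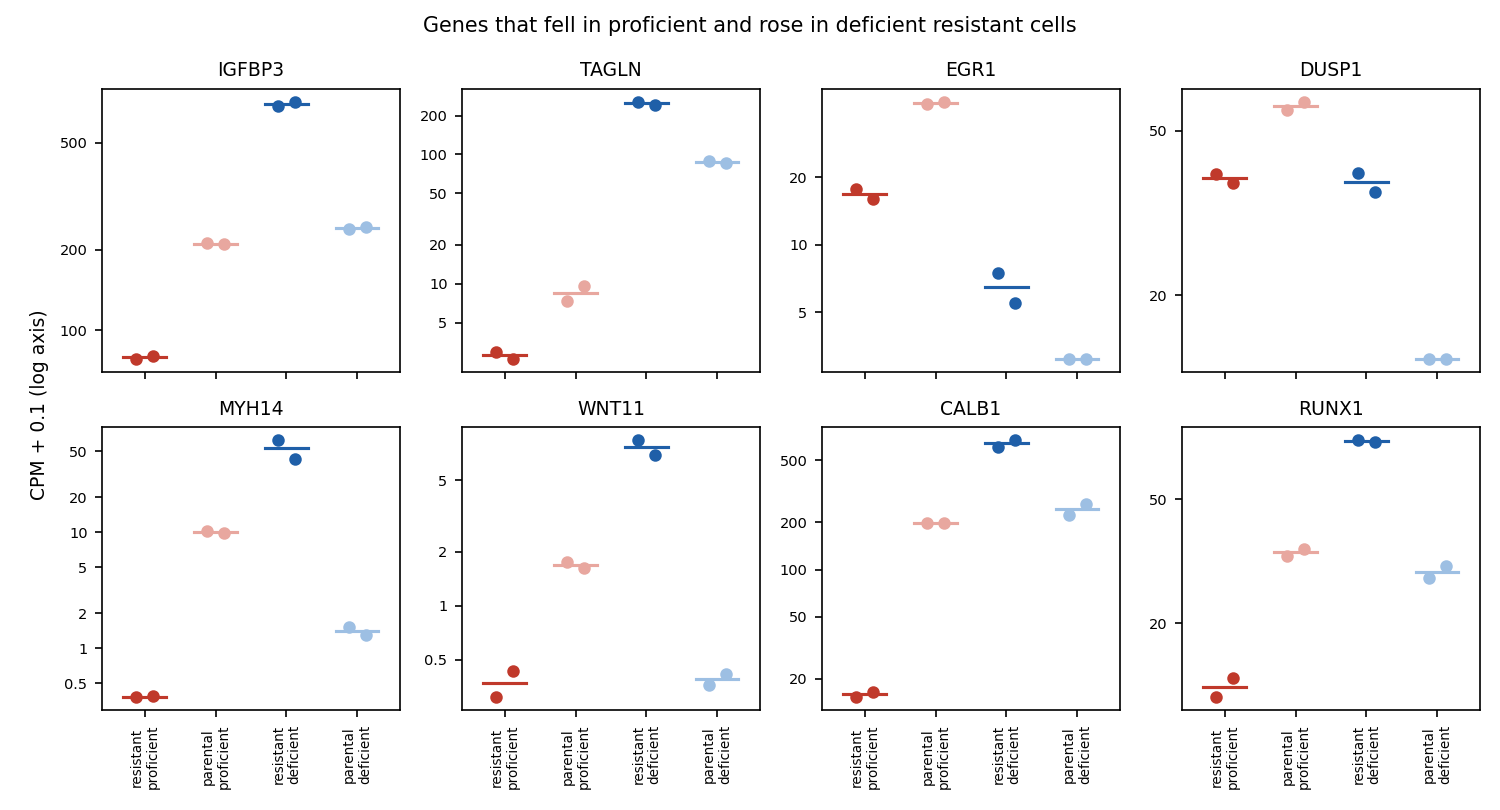
Levels of 8 genes that fell in proficient and rose in deficient resistant cells, in CPM plus 0.1 on log axes, with 1 point per library and a bar at the group mean. In all 8 panels the resistant proficient libraries lie below the parental proficient ones and the resistant deficient libraries lie above the parental deficient ones.

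The 12 genes that the rule took in this direction included the WNT ligand genes WNT11 and WNT10A. MYH14, a non-muscle myosin heavy chain, had 0.278 and 0.291 CPM in resistant proficient and 10.1 and 9.82 in parental proficient libraries, against 62.3 and 43.1 in resistant deficient and 1.41 and 1.20 in parental deficient libraries. The effects were nearly equal in size, -5.11 ± 0.29 and 5.33 ± 0.21 (edgeR adjusted p = 1.22e-07 and 2.31e-08), and the parental order turned round. WNT11, a non-canonical WNT ligand, had 0.208 and 0.333 CPM in resistant proficient, 1.65 and 1.52 in parental proficient, 8.28 and 6.80 in resistant deficient and 0.263 and 0.316 in parental deficient libraries, a difference of -7.23 ± 0.46. WNT10A, a canonical WNT ligand, had effects of -2.74 ± 0.49 and 2.93 ± 0.26, of which the second was 1.79 with the GC trend removed. ID4, an inhibitor of helix-loop-helix factors that has been tied to BRCA1 expression, had 9.47 and 11.5 CPM in resistant proficient, 42.1 and 39.3 in parental proficient, 18.5 and 17.6 in resistant deficient and 4.31 and 5.51 in parental deficient libraries. Resistant deficient cells took ID4 above resistant proficient cells, with a difference of -3.83 ± 0.21 (edgeR adjusted p = 2e-07).

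FOXL1, a forkhead factor of mesenchymal cells, had 0 counts in both resistant proficient libraries and 0.363 and 0.519 CPM in the parental ones, at least 7.87-fold lower. In deficient cells it rose to 17.1 and 14.6 CPM, against 0.197 and 0.459 CPM in parental libraries (5.55 ± 0.32, edgeR adjusted p = 6.23e-07). SORCS2, a receptor of the sortilin family, and ACOT11, an acyl-CoA thioesterase, had effects of -1.89 ± 0.28 and -1.81 ± 0.41 in proficient and 3.28 ± 0.31 and 2.11 ± 0.25 in deficient cells. For the rest, few reads in resistant proficient cells set the precision. RPE65, the retinal isomerase of the visual cycle, was 23.6-fold lower there (exact 95% interval 3.85 to 971), SLC6A11, a GABA transporter, 31.0-fold lower (8.23 to 261), ATAD3C, a mitochondrial ATPase, 35.7-fold lower (11.9 to 176) and KCNG1, a potassium channel subunit, 21.6-fold lower (5.64 to 184).

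Of these 4, the fitted proficient effect was -6.74 for RPE65 without resistant proficient replicate 2, and -8.08 for SLC6A11 and -7.59 for KCNG1 without resistant proficient replicate 1, against -4.28, -4.80 and -4.31 with all libraries. The deficient effect of KCNG1, 1.85 ± 0.40, was 1.18 without resistant deficient replicate 1. TSHZ3, a zinc finger homeobox gene, had 0 against 7 counts in proficient cells, at least 2.295-fold lower, and that fall missed the threshold without either resistant proficient library or parental proficient replicate 2 (edgeR adjusted p from 0.0709 to 0.215). ATAD3C lay in a run with its neighbours and close paralogs ATAD3B and ATAD3A on chromosome 1, all of which fell in proficient and rose in deficient cells at the adjusted p.

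Among abundant genes of this class, 6 were chosen after their values were seen. CALB1, a calcium-binding protein, had 15.1 and 16.5 CPM in resistant proficient and 199 and 197 in parental proficient libraries, against 608 and 672 in resistant deficient and 224 and 263 in parental deficient libraries. RUNX1, a transcription factor, had 11.5 and 13.3 CPM in resistant proficient, 32.8 and 34.6 in parental proficient, 77.5 and 76.3 in resistant deficient and 27.8 and 30.5 in parental deficient libraries. For both genes the parental levels of the backgrounds were close and the resistant levels far apart, with differences of -5.04 ± 0.13 and -2.85 ± 0.14 (edgeR adjusted p = 6.49e-10 and 9.73e-08). TMPRSS4, a membrane serine protease, had effects of -2.45 ± 0.10 and 1.46 ± 0.09. STC2, a secreted stress-induced glycoprotein, had -1.63 ± 0.08 and 1.02 ± 0.08, and lay on chromosome 5 in a run of 5 neighbours (CREBRF, BNIP1, NKX2-5, STC2 and BOD1) that all fell in proficient and rose in deficient cells at the adjusted p. DKK3, a secreted protein of the WNT antagonist family, had -1.79 ± 0.10 and 1.12 ± 0.08, and AHNAK2, a large scaffold protein, -2.30 ± 0.11 and 1.14 ± 0.09, of which the deficient effect was 0.67 with the GC trend removed.

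Opposite effects moved the backgrounds apart more often than together. Among the 153 genes that rose in proficient and fell in deficient cells, proficient cells had the higher mean in 141 after resistance and in 51 before it, and the order turned round for 90 (58.8%). The gap between the backgrounds was wider in resistant than in parental cells for 110 and narrower for 43, with median absolute log2 gaps of 3.28 in resistant and 1.59 in parental cells (CPM plus 0.05). Among the 105 genes that went the other way, proficient cells had the higher mean in 4 after resistance and in 52 before it, and the order turned round for 48 (45.7%). The gap was wider for 90 and narrower for 15, with medians of 3.69 in resistant and 1.12 in parental cells. These directions follow in part from how the classes were chosen and are given as a description. All 258 genes had no overlap between resistant and parental libraries in either background, which held for 60.7% of all genes tested. That separation follows largely from the thresholds that chose the 258 genes and is no added support for them.

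**Figure D4:**
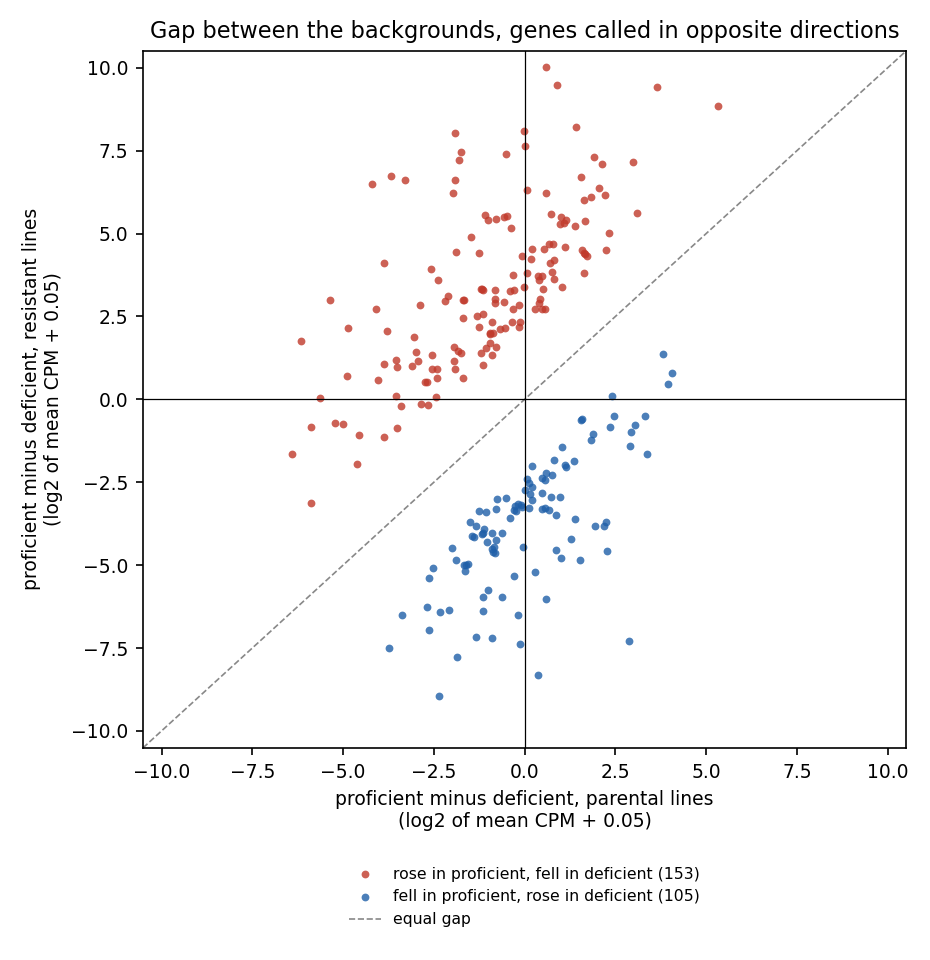
Each point is a gene with opposite effects, with the log2 gap between proficient and deficient means in parental cells on the x axis and in resistant cells on the y axis (CPM plus 0.05). Of the 153 genes that rose in proficient and fell in deficient cells, 141 lie above 0 on the y axis, and of the 105 that went the other way 101 lie below it.

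Stress and unfolded protein response genes had a negative difference for 22 of 30 and a positive one for 3 (median -0.97), against 25.3% and 21.4% of all genes. In proficient cells 24 fell and 1 rose (27.8% and 25.9% of all genes). In deficient cells 16 fell and 4 rose (27.0% and 28.9% of all genes), and 13 of the 30 fell in both, as did 2137 of the 16221 genes tested. Opposite effects were seen for 4 members. Of these, 1 rose in proficient and fell in deficient cells (5.02% of all genes) and 3 did the reverse (4.28%). SLC7A5, an amino acid transporter induced by ATF4, had effects of -1.34 ± 0.15 and 0.94 ± 0.14, the second of which was 0.23 with the GC trend removed, and VLDLR, a lipoprotein receptor, went the other way with 0.83 ± 0.09 and -1.80 ± 0.10. Mitotic genes had a negative difference for 20 of 40 and a positive one for 4 (25.3% and 21.4% of all genes). In proficient cells 32 fell and 0 rose (27.8% and 25.9% of all genes). In deficient cells 26 fell and 4 rose (27.0% and 28.9% of all genes). Of the 40, 20 fell in both, beside 2137 of the 16221 genes tested. PLK1, a mitotic kinase, fell by 1.82 in proficient cells, and its deficient effect of 0.37 ± 0.10 was near 0 with the GC trend removed.

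Genes of cholesterol and fatty acid synthesis had a positive difference for 19 of 33 and a negative one for 4 (21.4% and 25.3% of all genes), with a median of 0.46. In proficient cells 13 rose and 5 fell (25.9% and 27.8% of all genes). In deficient cells 5 rose and 21 fell (28.9% and 27.0% of all genes), and 6 rose in proficient and fell in deficient cells (5.02% of all genes). HMGCS1, an early enzyme of the mevalonate pathway, had 776 and 860.3 CPM in resistant proficient, 209 and 188 in parental proficient, 332 and 358 in resistant deficient and 479 and 475 in parental deficient libraries. The rise of HMGCS1 in proficient cells (2.04 ± 0.08) was larger than its fall in deficient cells (-0.47 ± 0.07, and -0.20 with the GC trend removed), and the resistant proficient libraries were the highest of all. MSMO1, a sterol oxidase, moved less, with 0.55 ± 0.07 in proficient and -0.36 ± 0.07 in deficient cells, and its deficient effect was -0.06 with the GC trend removed (edgeR adjusted p = 0.252).

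Oxidative phosphorylation genes had a positive difference for 15 of 37 and a negative one for 5 (median 0.18), against 21.4% and 25.3% of all genes. Of 33 glycolysis and hypoxia genes, 7 had a positive and 11 a negative difference (21.4% and 25.3% of all genes), with a median of 0.025. Opposite effects were seen for 4 that rose in proficient and fell in deficient cells (5.02% of all genes). The reverse was seen for 1 (4.28%), MXI1, with effects of -0.26 and 0.65. PGK1, a glycolytic kinase, had 608 and 585 CPM in resistant proficient, 322 and 317 in parental proficient, 331 and 354 in resistant deficient and 581 and 577 in parental deficient libraries, and its effects of 0.90 ± 0.06 and -0.76 ± 0.06 exchanged the levels of the backgrounds. EGLN3, an oxygen sensor, and HK2, a hexokinase, rose by 0.45 ± 0.06 and 0.58 ± 0.06 in proficient cells and had effects of -1.04 ± 0.07 and -0.50 ± 0.06 in deficient cells.

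**Figure D5:**
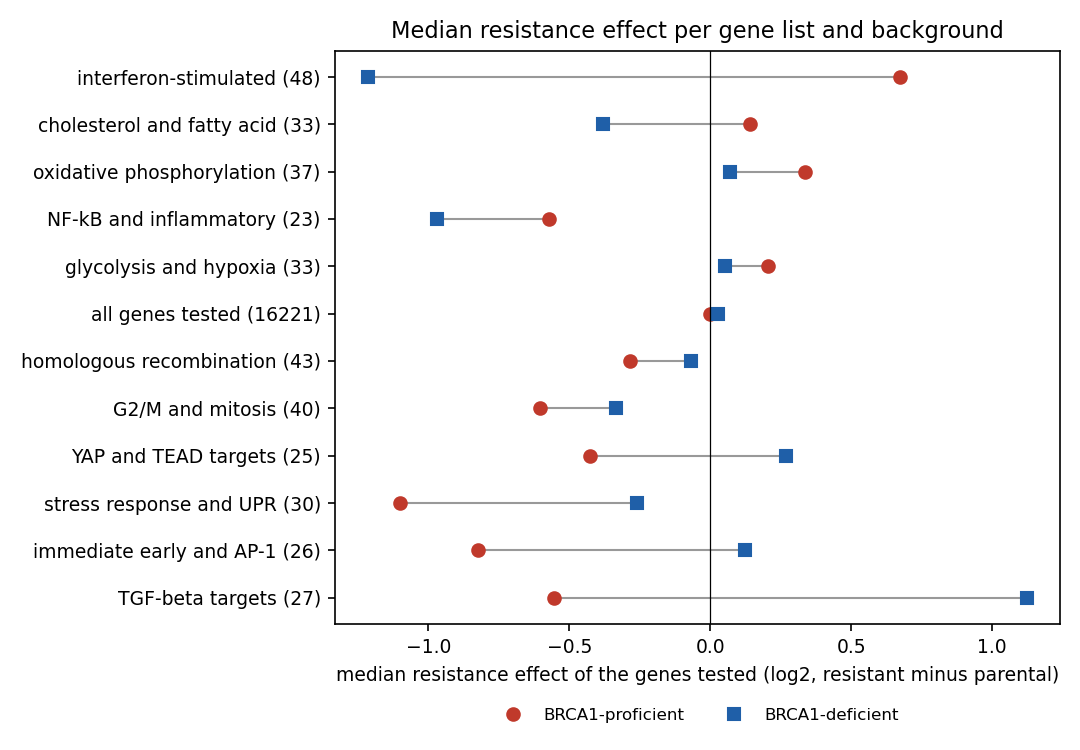
Median log2 resistance effect (x axis) of the gene lists described in the text and of all genes tested, with 1 row per list, circles for proficient and squares for deficient cells. The interferon list has medians of 0.67 and -1.21 and the TGF-beta list of -0.55 and 1.12, against -0.002 and 0.026 over all genes tested.

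Among genes tied to PARP inhibitor response and repair, opposite effects were met by 1 of 13 panel genes and 4 of 43 homologous recombination genes, against 5.02% of all genes in one direction and 4.28% in the other. Of 13 tested genes of a panel of PARP inhibitor response, 2 had a positive difference, BRCA1 and TP53BP1 (21.4% of all genes), and 6 a negative one (25.3%). TP53BP1, which steers breaks away from recombination, had 113 and 122 CPM in resistant proficient and 63.1 and 63.4 in parental proficient libraries, and 65.0 and 71.5 in resistant deficient and 57.4 and 59.5 in parental deficient libraries, a difference of 0.67 ± 0.11 (edgeR adjusted p = 0.000439). ABCC1, a drug efflux pump, was the 1 panel gene with opposite effects, -0.73 ± 0.07 in proficient and 0.64 ± 0.07 in deficient cells. Its deficient effect was 0.42 with the GC trend removed. BRCA2, a homologous recombination gene, fell by 0.97 in proficient cells and had 0.04 ± 0.09 in deficient cells, a difference of -1.01 ± 0.13. PARP1, the drug target, fell in both, by 0.99 in proficient and 0.55 in deficient cells, a difference of -0.44 ± 0.08 (edgeR adjusted p = 0.00141).

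RIF1, a partner of TP53BP1, and CDK12, a kinase that sustains repair gene transcription, had negative differences of -0.33 ± 0.12 and -0.26 ± 0.08. Their adjusted p values of 0.0488 and 0.0286 in edgeR reached 0.34 and 0.249 with a library left out. MAD2L2 and SHLD2, shieldin genes, SLFN11, a sensitiser to replication stress, and the efflux pumps ABCB1 and ABCG2 had differences of -0.52 ± 0.22, -0.05 ± 0.16, -0.01 ± 0.36, 2.27 ± 1.51 and -0.38 ± 0.65 that did not pass (edgeR adjusted p from 0.076 to 0.987). The negative difference of MAD2L2 passed with the replicate block (-0.53, edgeR adjusted p = 0.0418), without resistant proficient replicate 1 (-0.70, 0.0202) and without resistant deficient replicate 2 (-0.57, 0.0407), and it turned to 0.39 with the GC trend removed (edgeR adjusted p = 0.0487). Of 43 homologous recombination genes, 6 had a positive and 19 a negative difference (21.4% and 25.3% of all genes), with a median of -0.22. Those that fell in proficient and rose in deficient cells were the 4 genes RAD50, FANCD2, RMI2 and UIMC1 (4.28% of all genes), and 0 went the other way (5.02%). RAD50, a subunit of the break-sensing MRN complex, had effects of -0.71 ± 0.07 and 0.25 ± 0.07. Its deficient effect missed the threshold without resistant deficient replicate 2 (0.17, edgeR adjusted p = 0.103) and without parental deficient replicate 1 (0.22, adjusted p = 0.0828), and was 0.51 with the GC trend removed. The effects of FANCD2, RMI2 and UIMC1 were -0.23, -0.30 and -0.22 in proficient and 0.44, 0.29 and 0.46 in deficient cells. Each of these genes lost at least 1 of its calls when a library was left out. With all libraries in, the proficient effects of FANCD2 and UIMC1 also missed the threshold with DESeq2 (adjusted p = 0.0741 and 0.127). They missed it with library totals alone as well (edgeR adjusted p = 0.0671 and 0.107).

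The largest differences belonged to genes that were silent in 1 group. ZMYM2, ZMYM5 and GJB2, which lie on chromosome 13, had at most 1 count over both resistant proficient libraries against 5931, 854 and 1548 counts over the parental ones. ZMYM2, a chromatin factor, was 5833-fold lower (exact 95% interval 1047 to 230400), ZMYM5 at least 280-fold lower and GJB2, a gap junction gene, at least 507.5-fold lower. In deficient cells ZMYM2 and ZMYM5 had 0.19 ± 0.08 and -0.02 ± 0.16, which did not pass, and GJB2 rose by 0.59 ± 0.10 (edgeR adjusted p = 0.000704). ARMCX2, an X-linked armadillo gene, had 1711 counts in parental deficient libraries and 0 in resistant deficient ones, at least 544.9-fold lower. Proficient cells had 2 counts in resistant and 0 in parental libraries, so its fitted difference rested on those 2 reads and was lost without resistant proficient replicate 1 (12.60, edgeR adjusted p = 1). FN1, fibronectin, was chosen after its values were seen. It had 159 and 147 CPM in resistant proficient and 7067 and 6937 in parental proficient libraries, and 5847 and 5996 in resistant deficient and 9854 and 10000.2 in parental deficient libraries. FN1 fell in both backgrounds, by far more in proficient cells, with effects of -5.52 ± 0.07 and -0.75 ± 0.06 and a difference of -4.77 ± 0.09 (edgeR adjusted p = 9.96e-11).

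At the log2 minimum of 1 the classes had no natural edge. TSPAN6 lay just inside the first class with effects of 1.001 and -1.46, and ANPEP just outside it with 0.9997 and -4.02. LOC100128966 lay just inside the second with -1.0003 and 2.31, and PELI3 just outside with -1.04 and 0.997. Without the minimum, 815 genes rose in proficient and fell in deficient cells and 694 did the reverse.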

How the data were processed

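The values are RNA-seq read counts per gene symbol in 8 samples of ovarian cancer cells, which the authors deposited as 1 table of whole numbers with no scaling. The table lists 32803 symbols. The submitters' processing notes name Trimmomatic 0.39, featureCounts with Subread 2.0.1 and DESeq2 1.24.0, beside the build GRCh37, and give them no role. Annotation, strand and multi-mapping settings are not given in the sources used, so overlapping genes, antisense partners and close paralogs cannot be told apart. Groups came from the sample titles, and replicate libraries differed by more than sampling noise (chi-square per degree of freedom 4.21 to 22.5).

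Counts were tested with edgeR 4.0.16 in R 4.3.3 (quasi-likelihood test). TMM factors scaled the libraries, filterByExpr kept 16221 genes, and the 4 groups of 8 libraries entered 1 fit without covariates, with 4 residual degrees of freedom. P-values were adjusted by Benjamini-Hochberg over all genes tested. Counts of changed genes needed an adjusted p under 0.05 and a log2 value of at least 1, while list members needed the adjusted p alone. An SE is the log2 value divided by the square root of F. Bounds use a floor of 3 counts over a group, ratios with 1 to 3 counts an exact 95% interval, and both cover counting error only. With 2 libraries a group, no permutation test of a single value can reach the threshold, so the fit across all genes was used throughout.

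Named genes were the PARP inhibitor panel, the 12 genes per direction with the largest smaller effect of the 2, up to 4 members per list with opposite effects, the 4 largest differences per direction, and the genes at the edge of the threshold. Some genes taken by these rules are not reported here. Members, lists and rule were chosen with earlier results of these data known.

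Upstream sequences and gene order are from RefSeq tables of GRCh38.p14, matched by symbol, and no coordinates of the authors' build were used. Transcript GC content (longest GENCODE transcript per symbol) was found for 95.9% of the genes tested. As an alternative, its trend (a natural spline with 5 df) was subtracted from each library. The other alternatives were RLE factors, library totals, other filters, other log2 minimums, DESeq2 1.42.0, the replicate number as a block and each library left out. Deviations from the group means correlated by -0.132 to 0.212 between libraries of the same replicate number, so the numbers were not taken to pair them. The fit was tested on simulated counts.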

Additional observations from a re-analysis of the deposited data

Results flagged for a closer look

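The test of the difference between the backgrounds picked out 1637 genes with a more positive and 2044 with a more negative resistance effect in proficient than in deficient cells. The 8 named genes with the most extreme fitted differences also passed that test (edgeR adjusted p). On the log2 scale the difference was 15.90 for OR4C6, 15.88 for ARMCX2, 12.64 for PCDHB8 and 11.77 for ZNF729. In the other direction it was -13.31 for GJB2, -12.41 for ZMYM2, -12.26 for FOXL1 and -11.85 for ZMYM5. All 8 genes had a group with at most 3 counts, so these fitted sizes depend on the prior count and are no bounds.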

How the results depend on the processing

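Counts moved most with the log2 minimum. Without a minimum the difference was positive for 3470 and negative for 4108 genes, and the opposite classes held 815 (up in proficient, down in deficient) and 694 (the reverse). With a minimum of 0.5 the classes held 407 and 348. With 1 library left out at a time, the positive differences ranged from 1498 to 1869, the negative ones from 1486 to 2102, and the opposite classes from 135 to 168 and from 71 to 120. The lowest value of the second class, 71, came without resistant deficient replicate 1. DESeq2 gave 134 and 89 and the remaining scalings and filters 156 to 168 and 93 to 115. With the replicate number as a block the counts were 1638, 2104, 154 and 106, although the numbers were not found to pair the libraries, and with the block and the GC trend removed 1716, 1618, 158 and 71.

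Values that passed in neither fit could change sign in other settings, as the deficient effect of BRCA2 did (0.04, lowest -0.11). Among values that passed the adjusted p in the main fit or in the alternative, direction turned only where the GC trend was removed. Removed alone, and then with the block, it gave deficient effects of 0.21 and 0.21 for BRCA1, -0.25 and -0.25 for MAD2L2, 0.14 and 0.14 for RIF1, 0.29 and 0.29 for SHLD2, -0.0120 and -0.00990 for DDIT4, -0.00603 and -0.00643 for PLK1, -0.22 and -0.22 for INCENP, 0.0471 and 0.0473 for NDUFA9, -0.00789 and -0.00798 for GADD45B, -0.52 and -0.52 for KRT7, -0.82 and -0.82 for MACROD1, and -0.96 and -0.99 for MUC1. The difference turned to 0.39 and 0.39 for MAD2L2 and to 0.63 and 0.69 for MUC1. These were 28 of the single-gene values, beside 246 that lost and 23 that gained a call and 6081 that kept both. The cause was not tested. A sum of 3 counts or fewer in a group limits how low a level can be placed, and 15 and 9 genes of the opposite classes had a group at 0 counts.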
